A study of Mus musculus with 48 samples.

Results

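The 10 genes described here encode the enzymes that make the backbone of cholesterol, which are Hmgcs1, Mvk, Pmvk, Mvd, Idi1, Fdps, Ggps1, Fdft1, Sqle and Lss. They were found by gene symbol among the probe sets of the array, and all 10 genes had at least 1. A probe set is a group of short probes for 1 transcript. The genes had 26 of the 45037 probe sets tested and are 10 of the 18193 genes with a probe set that names a single gene. Hmgcs1 had 5 probe sets, Ggps1 and Fdft1 had 4 each, Lss had 3, Mvk, Mvd, Idi1 and Fdps had 2 each, and Pmvk and Sqle had 1 each. No probe set that lists several genes named any of them.

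Liver RNA came from 48 male C57BL/6J mice, with 1 Affymetrix mouse expression array for each animal, and every one of the 4 groups held 12 mice. All of them had first been fed the L-P/C-HF diet, which is high in fat and low in the ratio of protein to carbohydrate, for 10 weeks, and all were selected as the more glucose intolerant of a larger set. The H-P/C-HF groups then received a diet of equal fat in which protein replaced carbohydrate for 2 days (H-P/C-HF 2-d) or 4 weeks (H-P/C-HF 4-wk), while the L-P/C-HF 2-d and L-P/C-HF 4-wk groups stayed on the first diet for the same times. The sample labels use their own short names for the diets, and the short name with high protein in it was read as H-P/C-HF. The 4-wk mice were also older than the 2-d mice and were killed on other days. All mice had a glucose tolerance test after a shorter fast just before the diets were assigned. For the 2-d mice that test was within days of death. The 4-wk mice had another one, after an overnight fast, about a week before death. These differences cannot be told apart from the duration. Feeding state at death is not given in the sources used here. Values are RMA levels on a log2 scale, so that a difference of 1 means a doubling, and levels of different genes are not set against each other because probes differ in affinity.

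Cholesterol is built from acetyl-CoA in the cytosol and endoplasmic reticulum, and the liver is a main site of its synthesis. Hmgcs1 makes HMG-CoA, and Mvk, Pmvk and Mvd turn mevalonate into isopentenyl diphosphate. Idi1 and Fdps build farnesyl diphosphate, from which Ggps1 makes the geranylgeranyl chain that is attached to proteins, while Fdft1, Sqle and Lss lead through squalene to lanosterol, the first sterol. Genes of this pathway are known targets of the sterol-sensing transcription factor SREBF2, which is released to the nucleus when sterols in the membrane are low.

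The methods of the study set aside array B25, from the H-P/C-HF 2-d group, as an outlier. It was left out here too, which gave 47 arrays, 11 of them in that group. Arrays A01 and A09 (L-P/C-HF 2-d) and A24 (L-P/C-HF 4-wk) also correlated less with the others and were kept, and values without them are given where they matter. No 2 of the 48 arrays were identical, their pairwise correlations lay between 0.956 and 0.996, and array medians lay between 6.73 and 6.91. The 8 hepatocyte markers, among them Alb and Apoa1, averaged between 13.49 and 13.98 in every mouse of the 4 groups, near the top of the scale. The number of arrays limits the precision. A gene is said to rise, fall or change only where its adjusted p was under 0.05 over all 45037 probe sets.

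Promoter windows of 3 of the genes are shown because they stand for the patterns given below, Hmgcs1 for the genes that rose with 4 weeks of H-P/C-HF feeding, Idi1 for the largest diet difference at 4-wk, and Ggps1 for the gene whose level did not go with the others. Each covers 250 bases before and 50 bases after the start of the gene in RefSeq on build GRCm38.p6, which is chr13:119690101-119690400 on the plus strand for Hmgcs1, chr13:8885356-8885655 on the plus strand for Idi1 and chr13:14063439-14063738 on the minus strand for Ggps1. Capitals mark CCAAT on either strand, the box bound by NF-Y, which is a known partner of SREBF proteins, and TCACNCCAC on either strand, which is held by known sterol elements.
Hmgcs1: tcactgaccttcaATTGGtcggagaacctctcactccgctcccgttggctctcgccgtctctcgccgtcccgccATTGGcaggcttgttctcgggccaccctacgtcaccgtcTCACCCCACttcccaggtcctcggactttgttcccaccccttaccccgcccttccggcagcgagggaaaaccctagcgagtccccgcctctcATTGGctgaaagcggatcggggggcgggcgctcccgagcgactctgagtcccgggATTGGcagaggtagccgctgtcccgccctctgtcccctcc
Idi1: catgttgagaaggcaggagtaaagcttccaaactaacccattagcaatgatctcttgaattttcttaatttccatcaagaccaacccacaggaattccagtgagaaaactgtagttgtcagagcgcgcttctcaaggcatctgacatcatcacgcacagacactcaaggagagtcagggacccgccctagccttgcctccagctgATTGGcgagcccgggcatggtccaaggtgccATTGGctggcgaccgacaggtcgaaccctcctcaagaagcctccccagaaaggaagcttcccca
Ggps1: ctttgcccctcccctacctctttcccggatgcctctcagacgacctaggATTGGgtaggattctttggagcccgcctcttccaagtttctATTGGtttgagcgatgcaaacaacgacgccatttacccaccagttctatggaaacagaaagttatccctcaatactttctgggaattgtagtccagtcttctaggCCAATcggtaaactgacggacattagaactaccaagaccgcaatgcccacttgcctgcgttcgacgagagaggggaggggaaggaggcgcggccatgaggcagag

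Windows were found for 7 of the 10 genes, 8 windows in all since Pmvk had 2, and Fdps, Fdft1 and Sqle are named only. CCAAT stood in 7 of the 8 windows, so that each of the 7 genes had it, and in 37.4% of all 32851 windows of 300 bases. Mvk had 5 copies, Hmgcs1 had 4, Ggps1 had 3, Idi1 and Mvd had 2 each, and Lss and Pmvk had 1 each. Of the 8 windows, TCACNCCAC stood only in that of Hmgcs1, 137 bases before its start, and in 1.24% of all windows. The 2 motifs did not overlap there. A match of letters is a description and not a site in use, and Ggps1 had the box as well.

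The first question was what 2 days of the H-P/C-HF diet did to these genes. No gene passed the test, and the levels of 9 of the 10 lay lower in H-P/C-HF 2-d mice than in L-P/C-HF 2-d mice, with Ggps1 as the exception. The median difference over the 10 genes was -0.25, against 0.01 over all 18193 genes, each gene taken by its brightest probe set. Of the 26 probe sets, 0 were past an adjusted p of 0.05 by limma, a share to be set beside 0.0133% of all probe sets, and at an unadjusted p under 0.05 there were 11 lower and 1 higher, beside 1.62% lower and 1.9% higher over all probe sets. The 11 are not separate results. Hmgcs1 and Idi1 each gave several of them, and the genes other than Ggps1 varied together between mice, as described below. The same limit holds for the counts of the other comparisons. By ordinary one-way ANOVA 0 of the 26 passed after adjustment, beside 0% of all probe sets, whereas 8 passed with an error pooled over probe sets of like level, beside 0.344% of all probe sets. That error approximates the model in the study's methods, and the 8 belonged to Hmgcs1, Idi1, Fdps and Sqle. By their brightest probe sets, the SD of these genes between mice was 2.35, 2.96, 2.62 and 3.30 times the median of like probe sets. The pooled error thus understates their spread, and a pass by it does not show a difference beyond that spread. Of the members, 6 genes were lower at an unadjusted p under 0.05 by their brightest probe set. Liver RNA comes from a mixture of cells, so that fewer cells of a type and less RNA per cell cannot be told apart. At 2-d all 8 Kupffer cell markers had a lower mean on H-P/C-HF (median difference -0.12, 0 of them at an unadjusted p under 0.05 by limma), and all 8 hepatocyte markers had a higher one (median difference 0.02), with Cps1 at 0.23 and Tat at 0.34 at an unadjusted p under 0.05. Their part in the differences of the pathway genes was not tested.

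Hmgcs1, the synthase that opens the pathway, had a lowest, median and highest level of 9.91, 10.84 and 11.45 in H-P/C-HF 2-d mice, against 10.83, 11.23 and 12.83 in L-P/C-HF 2-d mice. The groups overlapped, although 10 of the 11 mice on H-P/C-HF were under the median of the mice on L-P/C-HF, and 5 of them were under the lowest of these. The difference was -0.52 ± 0.18 (SE), or 0.697-fold, with an unadjusted p of 0.00635 and an adjusted p of 0.9998 by limma. Its 3 next brightest probe sets gave -0.51, -0.54 and -0.51, while its dim probe set gave 0.02.

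Fdps, which builds the farnesyl chain, reached 9.34, 9.89 and 10.77 (lowest, median and highest) in H-P/C-HF 2-d mice and 9.98, 10.44 and 12.23 in L-P/C-HF 2-d mice. The groups overlapped, and 6 of the 11 mice on H-P/C-HF were under the lowest mouse on L-P/C-HF. The difference of -0.67 ± 0.22 (SE), or 0.629-fold, had the smallest unadjusted p of the 10 genes, 0.00307. The dim probe set of Fdps gave 0.01.

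Sqle, the squalene epoxidase, had the largest difference of the 10, -0.80 ± 0.28 (SE), or 0.574-fold. Its lowest, median and highest levels were 7.72, 7.97 and 9.33 in H-P/C-HF 2-d mice and 7.68, 8.76 and 11.40 in L-P/C-HF 2-d mice. Here the L-P/C-HF mice covered a far wider range, with an SD of 1.05 against 0.50 in H-P/C-HF 2-d mice, so that the groups overlapped over the whole H-P/C-HF range. Idi1, the isomerase, showed the same layout, with 8.35, 8.84 and 9.87 in H-P/C-HF 2-d mice, against 8.18, 9.70 and 10.94 in L-P/C-HF 2-d mice, and a difference of -0.60 ± 0.25 (SE).

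Fdft1, the squalene synthase, and Lss, the lanosterol synthase, differed less. Fdft1 had 9.19, 9.55 and 9.81 in H-P/C-HF 2-d mice, against 9.30, 9.70 and 10.68 in L-P/C-HF 2-d mice (difference -0.23 ± 0.11, SE). Lss had 8.87, 9.21 and 9.54 in H-P/C-HF 2-d mice, against 9.04, 9.50 and 10.32 in L-P/C-HF 2-d mice (difference -0.26 ± 0.10, SE), and 10 of the 11 mice on H-P/C-HF were under the median on L-P/C-HF. Both overlapped between the groups. By their brightest probe sets, the 2 kinases and the decarboxylase of the mevalonate steps had intervals of the difference that held 0. Mvk differed by -0.18 (95% confidence interval -0.38 to 0.03), Pmvk by -0.24 (-0.55 to 0.06) and Mvd by -0.16 (-0.37 to 0.04). The dimmer probe set of Mvd gave -0.25 (-0.47 to -0.02), with an unadjusted p of 0.034 by limma.

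Ggps1, the geranylgeranyl diphosphate synthase of the side branch, ran from a lowest of 7.88 over a median of 8.05 up to 8.23 in H-P/C-HF 2-d mice, against 7.60, 7.95 and 8.25 in L-P/C-HF 2-d mice. The ranges nested within each other, and the difference was 0.08 (-0.05 to 0.21). A dimmer probe set of Ggps1, which gave 0.13 with an unadjusted p of 0.0471, was the 1 that was higher.

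1 mouse weighed on these values. Array A09 of the L-P/C-HF 2-d group had the highest level of its group in 9 of the 10 genes, Pmvk at 8.26 and Mvk at 9.57 included, and the lowest level of Ggps1, 7.60. Its mean over the 10 genes was 10.15, against a median of 8.94 in its group. Without A09 the number of probe sets lower at an unadjusted p under 0.05 was 6 instead of 11, the difference of Mvk was -0.07 and that of Mvd was -0.07, while Fdps stood at -0.53, Sqle at -0.58 and Hmgcs1 at -0.39. Idi1 (-0.48, unadjusted p = 0.0558) and Fdft1 (-0.14, unadjusted p = 0.127) then no longer had an unadjusted p under 0.05 by limma, and the median over the 10 genes was -0.18. B25, the array left out of the H-P/C-HF 2-d group, had levels of 10.65 for Hmgcs1, 8.23 for Sqle and 9.65 for Fdps, each within the range of the 11 others, and lay below them for Mvd (5.97) and Fdft1 (8.91) and above them for Mvk (8.40).

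**Figure D1:**
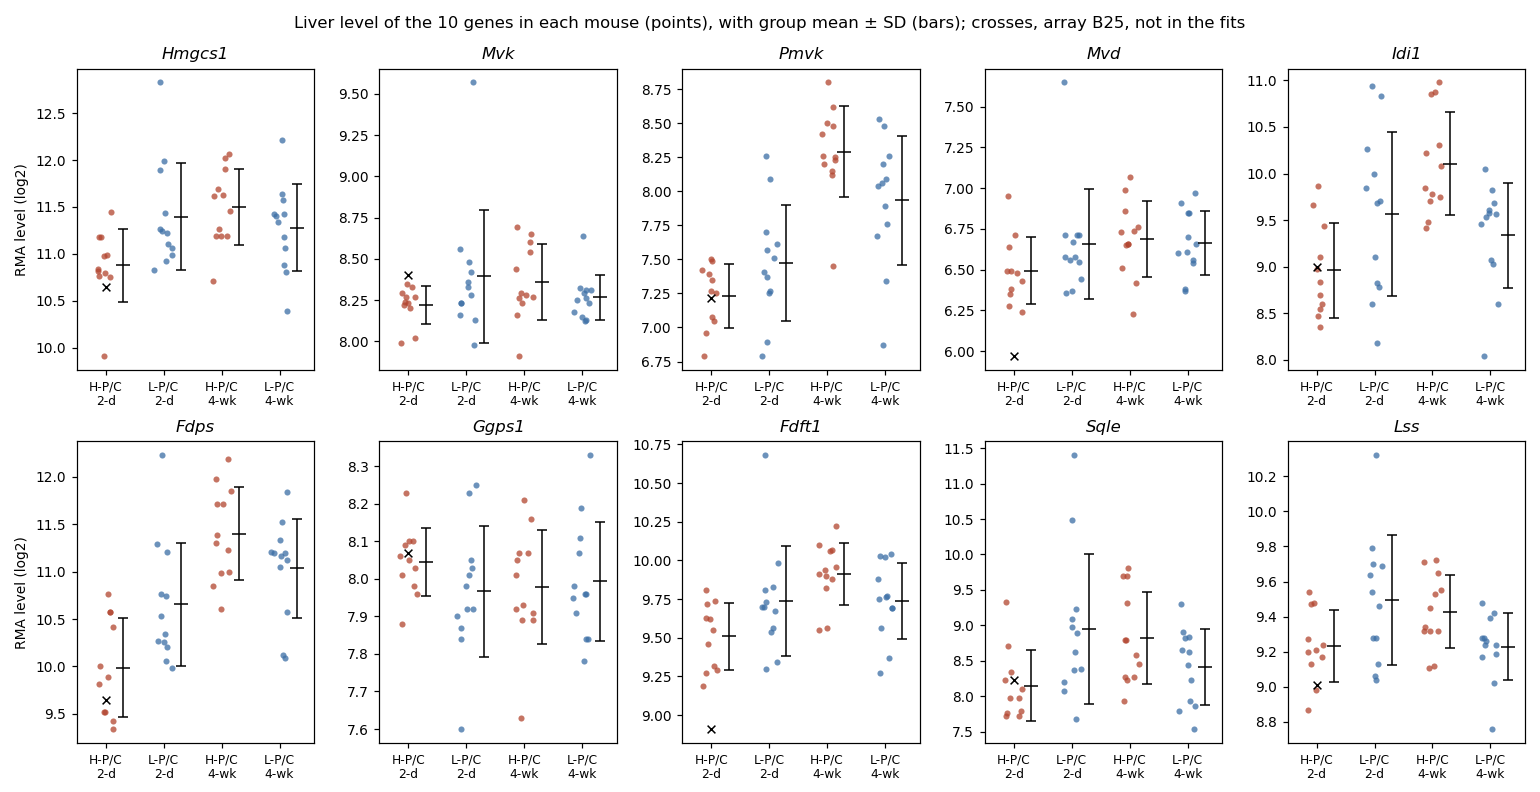
RMA level (log2, y axis) of the brightest probe set of each gene in every mouse, by diet and duration on the x axis; points are mice, bars the group mean ± SD and the cross is array B25, which entered no test. Every pair of diet groups overlapped in all 10 genes, and 1 L-P/C-HF 2-d mouse (A09) stood at the top of its group for 9 of them, Sqle at 11.40 included.

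After 4 weeks the order of the diets was the other way round. The levels of 9 of the 10 genes lay higher in H-P/C-HF 4-wk mice than in L-P/C-HF 4-wk mice, by a median of 0.21 over the 10 genes, against -0.02 over all genes, and Ggps1 was again the exception with -0.02. No gene passed the test. By limma 0 of the 26 probe sets had an adjusted p under 0.05, beside 0% of all probe sets, and 3 were higher at an unadjusted p under 0.05, beside 0.957% of all probe sets. These 3 were both probe sets of Idi1 and the probe set of Pmvk, and no member was lower at that threshold. Ordinary ANOVA passed 0 after adjustment, and the pooled error passed 5, beside 0.3% of all probe sets, which belonged to Pmvk, Idi1, Fdps and Sqle. The SD of Pmvk was 1.96 times the median of like probe sets, so that the pooled error understates the spread of all 4 of these genes.

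Idi1 had the largest difference, with a lowest, median and highest of 9.41, 9.97 and 10.98 in H-P/C-HF 4-wk mice, against 8.04, 9.55 and 10.05 in L-P/C-HF 4-wk mice. Of the 12 mice on H-P/C-HF, 10 were over the median on L-P/C-HF and 6 were over its highest mouse, and the groups overlapped below that. The difference was 0.77 ± 0.25 (SE), or 1.71-fold, with an unadjusted p of 0.0029, and the second probe set gave 0.94 ± 0.33 (SE).

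Pmvk, which adds the second phosphate to mevalonate, had 7.45, 8.26 and 8.80 in H-P/C-HF 4-wk mice, against 6.87, 8.05 and 8.53 in L-P/C-HF 4-wk mice. All but 1 of the mice on H-P/C-HF were over the median on L-P/C-HF, and the difference was 0.36 ± 0.15 (SE), or 1.28-fold. Without A24, the L-P/C-HF 4-wk mouse with the lowest Pmvk, Idi1 and Hmgcs1, Pmvk differed by 0.26 and the unadjusted p was 0.0628, so that 2 probe sets were higher instead of 3. Without B44, the H-P/C-HF mouse with the lowest level in 5 of the genes, 6 probe sets were higher, and 5 were without A22, the L-P/C-HF 4-wk mouse with the highest Pmvk, Idi1 and Fdps, and without A09, which enters only through the shared estimate of the spread.

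For the other genes the 95% confidence interval of the difference at 4-wk held 0. Hmgcs1 had 10.71, 11.54 and 12.07 in H-P/C-HF 4-wk mice, against 10.39, 11.37 and 12.21 in L-P/C-HF 4-wk mice, a difference of 0.22 (-0.14 to 0.58), which was 0.14 without A24. Fdps differed by 0.37 (-0.06 to 0.79), Sqle by 0.41 (-0.14 to 0.97), Fdft1 by 0.18 (-0.03 to 0.39) and Lss by 0.20 (-0.0025 to 0.40). Mvk differed by 0.09 (-0.11 to 0.29) and Mvd by 0.02 (-0.18 to 0.22). In the same comparison all 8 Kupffer cell markers lay lower in H-P/C-HF 4-wk mice, 4 of them at an unadjusted p under 0.05. None passed after adjustment, beside 0% of all probe sets. The share of all probe sets lower at the unadjusted threshold is not given here, so the count of 4 is not read further. The mean of these markers ran between 8.46 and 9.90 in H-P/C-HF 4-wk mice and between 9.07 and 10.6 in L-P/C-HF 4-wk mice. Their part in the differences of the pathway genes was not tested.

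**Figure D2:**
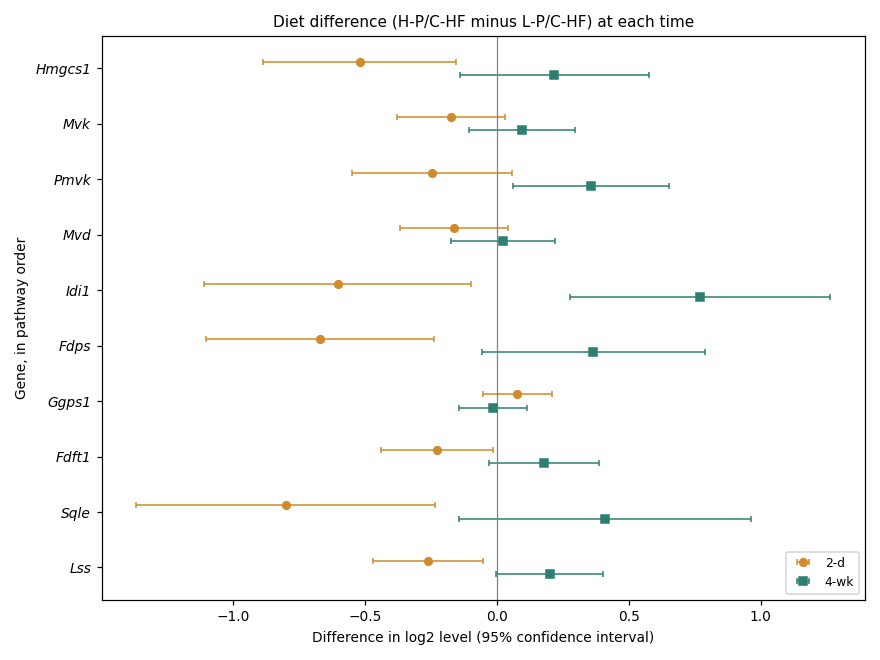
Diet difference in log2 level (H-P/C-HF less L-P/C-HF) on the x axis for each gene in pathway order down the page; circles are 2-d, squares are 4-wk and bars are 95% confidence intervals. 9 genes lie left of 0 at 2-d and right of 0 at 4-wk, Idi1 at -0.60 and 0.77, while Ggps1 stays within 0.08 of 0.

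The turn between the durations was tested as the diet difference at 4-wk minus that at 2-d. It was 1.37 ± 0.35 (SE) for Idi1, 1.21 ± 0.39 for Sqle, 1.03 ± 0.30 for Fdps, 0.74 ± 0.26 for Hmgcs1 and 0.60 ± 0.21 for Pmvk. Lss followed with 0.46 ± 0.14 and Fdft1 with 0.41 ± 0.15, while the intervals of Mvk (-0.02 to 0.56), Mvd (-0.10 to 0.47) and Ggps1 (-0.28 to 0.09) held 0. These are values of the brightest probe sets, and the dimmer probe set of Mvd gave 0.35 (0.03 to 0.67). The median over the 10 genes was 0.53, against -0.02 over all genes. After adjustment by limma 0 of the 26 probe sets passed, beside 0% of all probe sets, and the smallest unadjusted p was 0.000284, for Idi1. At an unadjusted p under 0.05, 14 probe sets were higher, beside 0.522% of all probe sets, and 1 was lower, a probe set of Ggps1, beside 1.11%. As at 2-d, the 14 are not separate results, since some share a gene and the genes varied together. Ordinary ANOVA passed 0 after adjustment and the pooled error passed 9, beside 0.155% of all probe sets, those of Hmgcs1, Pmvk, Idi1, Fdps and Sqle. The pooled error understates the spread of these genes here too. Without A09 the number higher was 11 and Idi1 stood at 1.25, Sqle at 0.99, Fdps at 0.89, Mvk at 0.16 and Mvd at 0.096.

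The 2 durations were then compared on each diet. On the H-P/C-HF diet, 5 of the 10 genes rose in 4-wk mice over 2-d mice, namely Fdps, Idi1, Pmvk, Hmgcs1 and Fdft1, at different points of the chain from the first step to squalene. By limma 9 of the 26 probe sets passed with an adjusted p under 0.05, all 9 of them higher, beside 6.69% of all probe sets in either direction, and 12 were higher at an unadjusted p under 0.05, beside 10% of all. The median over the 10 genes was 0.51, against -0.02 over all genes.

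Fdps showed the largest rise, with 10.61, 11.35 and 12.19 (lowest, median and highest) in H-P/C-HF 4-wk mice and 9.34, 9.89 and 10.77 in H-P/C-HF 2-d mice. The groups met only at their edges, since 11 of the 12 4-wk mice lay above every 2-d mouse. The rise was 1.41 ± 0.22 (SE), or 2.66-fold (adjusted p = 1.12e-05). The dim probe set of Fdps gave -0.16 and did not pass. Pmvk had the smallest adjusted p of the 10 genes, with 7.45, 8.26 and 8.80 in H-P/C-HF 4-wk mice, against 6.79, 7.27 and 7.50 in H-P/C-HF 2-d mice, and a rise of 1.06 ± 0.15 (SE), or 2.08-fold (adjusted p = 3.7e-06). Again 11 of the 12 4-wk mice exceeded all 2-d mice, and B44 was the one that did not.

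Idi1 rose by 1.15 ± 0.25 (SE), or 2.22-fold (adjusted p = 0.00195), and by 1.31 in its second probe set. All 12 of its 4-wk mice lay above the 2-d median of 8.84, and 6 lay above the highest 2-d mouse. Hmgcs1 rose in 4 of its 5 probe sets, by 0.62 ± 0.18 (SE) in the brightest (adjusted p = 0.0271) and by 0.74, 0.75 and 1.02 in the next 3, and its dim probe set gave -0.08. Fdft1 rose by 0.41 ± 0.11 (SE), or 1.32-fold (adjusted p = 0.0106), with 10 of 12 4-wk mice above every 2-d mouse, and its second brightest probe set gave 0.47 and did not pass (adjusted p = 0.0771). The dimmer probe sets of Fdft1 gave -0.07 and -0.10 and did not pass. Without B31, the H-P/C-HF 2-d mouse with the lowest Hmgcs1, the brightest probe set of Hmgcs1 gave 0.52 and did not pass (adjusted p = 0.0677).

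Sqle, for which 11 of the 12 4-wk mice lay above the 2-d median, differed by 0.67 ± 0.28 (SE) and did not pass (adjusted p = 0.162). Lss and Mvd, at 0.20 each, and Mvk, at 0.14, had intervals that held 0 by their brightest probe sets, and Ggps1 gave -0.07 (-0.20 to 0.06). The dimmer probe set of Mvd gave 0.28 (0.05 to 0.50) and did not pass (adjusted p = 0.146 by limma).

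On the L-P/C-HF diet, where the food stayed the same, the median over the 10 genes was -0.06, against 0.01 over all genes. Pmvk was the 1 gene of 10, with 1 of the 26 probe sets, that passed, beside 6.87% of all probe sets, with 6.87, 8.05 and 8.53 in L-P/C-HF 4-wk mice, against 6.79, 7.46 and 8.26 in L-P/C-HF 2-d mice. These groups overlapped almost wholly. The rise of 0.46 ± 0.15 (SE) had an adjusted p of 0.0481 by limma, and the adjusted p was over 0.05 with each array centred on its median (0.0851), with the replicate number as a block (0.0674), with cyclic loess (0.0527), with a separate fit (0.131), with the RNA quality covariate described below (0.397), by ordinary ANOVA (0.208) and on leaving out any 1 of 34 of the 47 arrays. Fdps differed by 0.38 (-0.04 to 0.80), Hmgcs1 by -0.12 (-0.48 to 0.24), Idi1 by -0.23 (-0.72 to 0.27), Sqle by -0.54 (-1.09 to 0.02), Lss by -0.27 (-0.47 to -0.06) and Fdft1 by -0.0008 (-0.21 to 0.21). Without A09, Sqle differed by -0.31, Idi1 by -0.10 and Hmgcs1 by 0.010. For Lss all 12 of the L-P/C-HF 4-wk mice lay below the median of the L-P/C-HF 2-d mice. The rise on one diet and not on the other does not by itself show that the diets differed, and the test of that difference is the one of the turn above, in which no probe set passed.

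RNA quality and other cells moved with duration. RNA quality was taken as how far the 3′ control probes of Gapdh and beta-actin exceeded the 5′ ones. This excess was 0.27 ± 0.11 in 4-wk mice and 0.48 ± 0.13 in 2-d mice on H-P/C-HF (mean ± SD over 12 and 11 mice). On L-P/C-HF it was 0.24 ± 0.07 in 4-wk mice and 0.48 ± 0.19 in 2-d mice (mean ± SD over 12 mice each). With this measure as a covariate, 5 of the 26 probe sets rose on the H-P/C-HF diet instead of 9, beside 1.38% of all probe sets instead of 6.69%, and Hmgcs1 by its brightest probe set (0.74, adjusted p = 0.0597) and Fdft1 (0.31, adjusted p = 0.283) no longer passed. The measure went with duration, so that this fit cannot tell the parts of RNA quality and duration apart. On the H-P/C-HF diet, 6 of the 8 Kupffer cell markers and all 5 markers of sinusoidal endothelium rose as well, beside 6.69% of all probe sets, with a mean of the Kupffer markers between 8.46 and 9.90 in 4-wk mice and between 8.34 and 9.18 in 2-d mice. On the L-P/C-HF diet 8 of the 8 Kupffer markers and 4 of the 5 endothelial markers rose, beside 6.87% of all probe sets, with a mean of the Kupffer markers between 9.07 and 10.6 in 4-wk mice and between 8.34 and 9.46 in 2-d mice. Of the 5 stellate cell markers 3 rose on each diet. The part of other cells in the rise of the pathway genes was not tested.

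**Figure D3:**
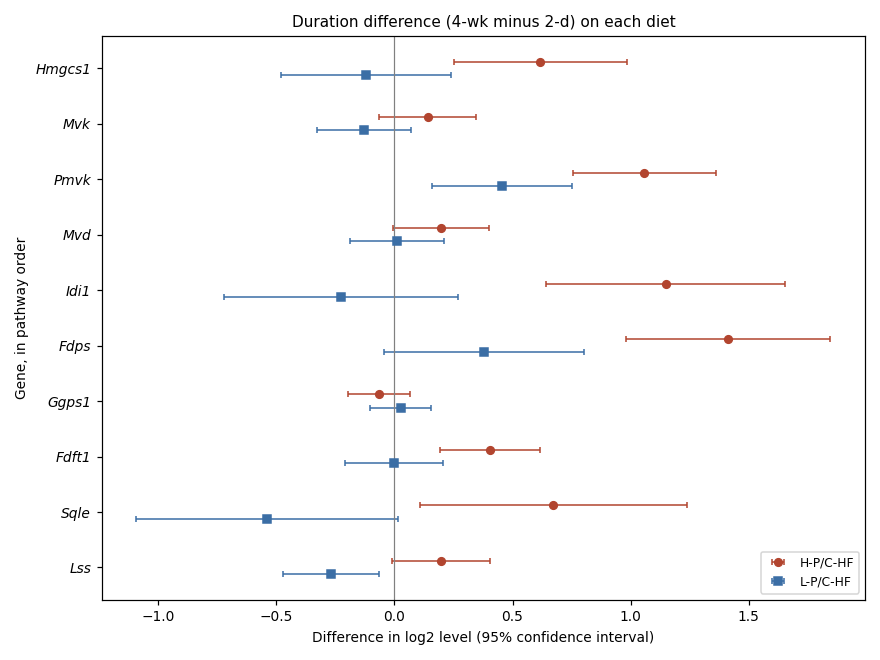
Difference in log2 level, 4-wk minus 2-d, on the x axis for each gene in pathway order down the page; circles are H-P/C-HF, squares are L-P/C-HF and bars are 95% confidence intervals. On H-P/C-HF Fdps stands at 1.41, Idi1 at 1.15 and Pmvk at 1.06, and on L-P/C-HF the points lie between -0.54 and 0.46.

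How widely mice of the same group differed was measured next, since it sets what such a test can call. The SD between mice within groups was 0.72 for Sqle, 0.64 for Idi1, 0.55 for Fdps, 0.47 for Hmgcs1 and 0.38 for Pmvk. Against the 500 probe sets closest in mean level, these 5 genes were above 99.4%, 99.4%, 99%, 98% and 96.2% of them. Over the 10 genes the SD was between 0.757 and 3.30 times the median SD of such probe sets, with a median of 1.64. Mvk, Mvd, Fdft1 and Lss lay above 71.2% to 79.2% of them, and Ggps1 lay above only 17.4%. The genes with the larger diet differences were thus among those that varied more between mice on the same diet. For Sqle the SD was 0.50 in H-P/C-HF 2-d mice, 1.05 in L-P/C-HF 2-d mice, 0.65 in H-P/C-HF 4-wk mice and 0.54 in L-P/C-HF 4-wk mice.

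**Figure D4:**
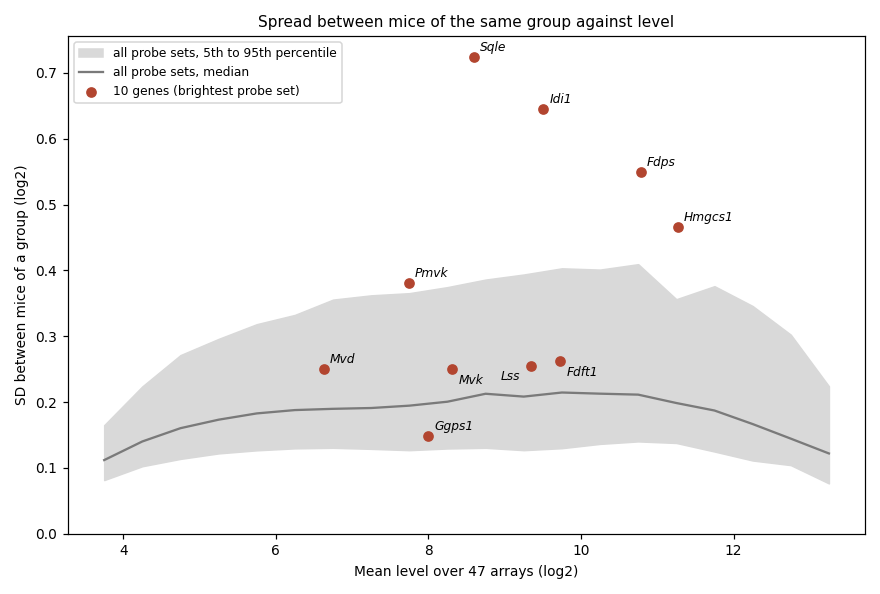
SD between mice of the same group (log2, y axis) against mean level (log2, x axis); points are the 10 genes, the line is the median of all probe sets in bins of level and the band runs from their 5th to their 95th percentile. Sqle (0.72), Idi1 (0.64), Fdps (0.55), Hmgcs1 (0.47) and Pmvk (0.38) lie above the band, and Ggps1 (0.15) lies under the line.

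The 9 genes other than Ggps1 varied together from mouse to mouse. Each level was taken as its deviation from the mean of the group, and the 45 pairs of genes were correlated over 47 mice. All 36 pairs without Ggps1 had a positive Pearson r, between 0.45 and 0.88 with a median of 0.61, and a Spearman rho between 0.24 and 0.91. By a two-sided permutation test within groups (100000 resamples, Benjamini-Hochberg over 45 pairs) 36 pairs had an adjusted p under 0.05 for r and 33 for rho, and none of them held Ggps1. The share of such pairs among all genes was not computed. These counts therefore do not show that varying together was particular to these genes. The 9 pairs with Ggps1 had an r between -0.27 and 0.03.

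Idi1 and Sqle were the closest pair, with r = 0.88 and rho = 0.91 (permutation p = 1e-05 for each, the smallest the test can give, and adjusted p = 3.21e-05 for r). Within the groups their r was 0.85 in H-P/C-HF 2-d mice, 0.91 in L-P/C-HF 2-d mice, 0.96 in H-P/C-HF 4-wk mice and 0.77 in L-P/C-HF 4-wk mice. Without the 2 mice farthest from the median of Idi1, r was 0.90. Idi1 and Lss followed with r = 0.85, then Fdps and Sqle with 0.81 and Sqle and Lss with 0.80. Hmgcs1 with Mvk was the loosest of the 36 (r = 0.45, rho = 0.24), where r without the 2 mice farthest from the median of Hmgcs1 was 0.19, so that this relation rested on those mice.

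Within groups the median r over all 45 pairs was 0.26 in H-P/C-HF 2-d mice, 0.76 in L-P/C-HF 2-d mice, 0.63 in H-P/C-HF 4-wk mice and 0.46 in L-P/C-HF 4-wk mice. The group that held A09 had the highest. Among the 36 pairs without Ggps1, 5 had a negative r in H-P/C-HF 2-d mice (lowest -0.21) and 1 in L-P/C-HF 4-wk mice (-0.15), and 0 did in the other two groups. Leaving out A09 brought the median r of all pairs to 0.43 instead of 0.59, and the 36 pairs without Ggps1 then had a median of 0.51 and a lowest of 0.15. Without A01, A09 and A24 the median over all pairs was 0.39. Ggps1 had a median r with the other genes of -0.46 in L-P/C-HF 2-d mice and 0.63 in H-P/C-HF 4-wk mice, which was not tested as a difference. 

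**Figure D5:**
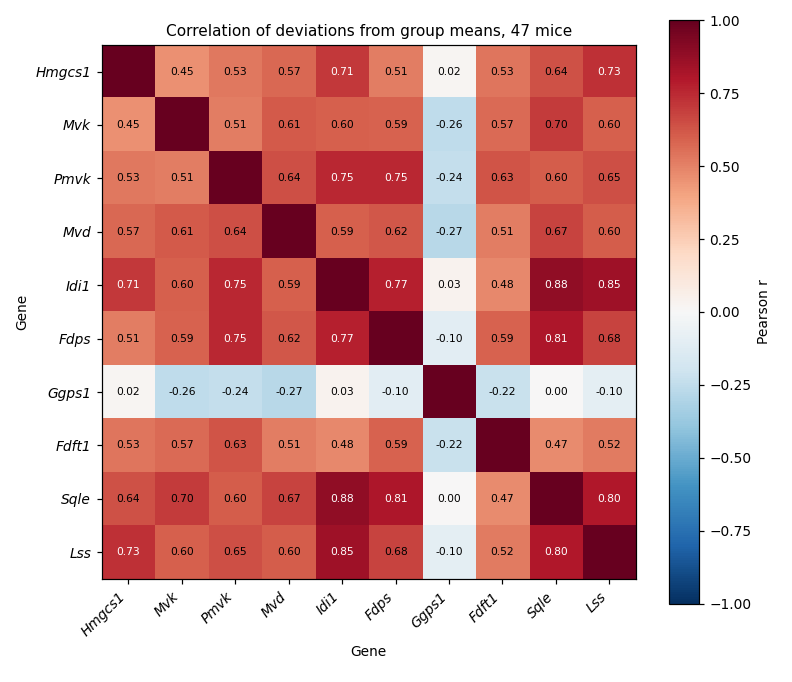
Pearson r between the deviations of each pair of genes from their group means over 47 mice, genes in pathway order on both axes, red for positive and blue for negative r. Every pair of the 9 genes other than Ggps1 is positive (0.45 to 0.88), and the row of Ggps1 lies between -0.27 and 0.03.

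Outside the 10 genes, those whose deviations were most like the mean deviation of the 10 over 47 mice were looked up among 18183 genes, as a description with no test. Cyp51 (r = 0.92), Dhcr7 (0.92), Msmo1 (0.88), Rdh11 (0.84) and Nsdhl (0.83) came first, and Cyp51, Dhcr7, Msmo1 and Nsdhl are enzymes of the later steps between lanosterol and cholesterol. They were followed by Arsg (0.74), Kcnt2 (0.72), Hsd17b7 (0.72), also a sterol enzyme, Acsl3 (0.68) and Aldoc (0.67). Without A01, A09 and A24, 5 of the first 10 genes were the same, Dhcr7, Cyp51, Msmo1, Rdh11 and Nsdhl, at r between 0.84 and 0.90.

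Of 10 enzymes listed for the later sterol steps, which turn lanosterol into cholesterol, 9 were measured. At 2-d, 7 of the 9 had a lower mean on H-P/C-HF (median difference -0.18), and 1 of these, Hsd17b7 at -0.33, and Ebp on the higher side at 0.13 had an unadjusted p under 0.05. At 4-wk 8 of the 9 had a higher mean on H-P/C-HF (median difference 0.39), 6 of them at an unadjusted p under 0.05, beside 0.957% of all probe sets. Among them were Tm7sf2, a sterol reductase, at 0.39 (unadjusted p = 5.06e-06, adjusted p = 0.228 by limma), Nsdhl at 0.39 and Cyp51 at 0.59. The median of the 10 genes described here was 0.21 at 4-wk, so that a higher level there was not particular to them. On the H-P/C-HF diet 5 of the 9 rose in 4-wk over 2-d mice, beside 6.69% of all probe sets, among them Sc5d by 0.51, Tm7sf2 by 0.37 and Msmo1 by 0.97. On the L-P/C-HF diet 0 of the 9 passed by limma, beside 6.87% of all probe sets, with 2 past an unadjusted p of 0.05.

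Among the steps before Hmgcs1, the branches from farnesyl diphosphate and the regulators, no gene passed in a diet comparison. Of 6 genes that feed acetyl-CoA into the pathway 3 were measured, and Acly, ATP citrate lyase, differed by -0.33 at 2-d (unadjusted p = 0.0206). Acss2, the cytosolic acetyl-CoA synthetase, rose by 0.45 in H-P/C-HF 4-wk over 2-d mice (adjusted p = 0.017). Acat1, an acetoacetyl-CoA thiolase, rose on both diets, by 0.23 on H-P/C-HF (adjusted p = 0.0386) and by 0.26 on L-P/C-HF (adjusted p = 0.0133). Of 11 genes of the branches to dolichol, ubiquinone and prenylated proteins, to which Ggps1 is closest, 10 were measured and 0 passed in either diet comparison by limma, at an adjusted or an unadjusted p of 0.05, with medians of -0.02 at 2-d and -0.03 at 4-wk. Of 9 regulators and targets of SREBF 8 were measured. At 2-d 6 of them lay lower and 2 higher on H-P/C-HF (median difference -0.06), and at 4-wk 4 lay lower and 4 higher (median difference -0.03). Srebf2 at 2-d was the only one with an unadjusted p under 0.05 by limma at either time. Srebf2, the factor itself, differed by -0.18 at 2-d (unadjusted p = 0.00355) and by -0.11 at 4-wk, and Insig1, a sterol-regulated brake on SREBF, by -0.24 at 2-d and 0.16 at 4-wk. Insig2, its relative, rose with duration on both diets, by 0.51 in H-P/C-HF and by 0.67 in L-P/C-HF mice.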

How the data were processed

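The deposited values are log2 levels that the authors made with RMA (background correction, normalization between arrays, summary per probe set); the log base was read from their range (3.16 to 14.81). Array B25 and the 64 control probe sets among 45101 were left out, leaving 47 arrays and 45037 probe sets. One coefficient per group was fitted with limma 3.58.1 (R 4.3.3; lmFit, eBayes with trend), in place of the one-way ANOVA with Global Error Assessment of the study, and p-values are two-sided with Benjamini-Hochberg adjustment over all probe sets. A gene stands for its brightest probe set with 1 symbol (34945 probe sets had 1, 932 several, 9160 none). The spread is that between mice. All probe sets of the 10 genes entered the counts, with values given for the brightest of each gene and for some of the others. Of the other pathway lists, genes with the smallest p are named. Members and lists were chosen with earlier results of these data known. Python 3.11.15 served for correlations. On simulated data of 45037 probe sets limma recovered 90% of shifts of 0.5 at 2-d, a share over simulated probe sets, while 9 of the 10 genes varied more between mice than the median of probe sets of like level. Alternatives are given at the end.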

Additional observations from a re-analysis of the deposited data

How the results depend on the processing

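Adjusted counts, unadjusted counts, medians and the differences of the 10 genes were recomputed with B25 included, without A01, A09 and A24, with each array centred on its median, with cyclic loess, with array weights, with a separate fit per comparison, without the eBayes trend, with an RNA quality covariate, on the brighter probe sets, by ordinary ANOVA, by a pooled error, and without each array in turn. The probe sets lower at 2-d at an unadjusted p under 0.05, 11 in all, were 6 without A01, A09 and A24, 7 with array weights, 6 by ordinary ANOVA and 6 to 13 without each array in turn. Those higher at 4-wk, 3 in all, were 2 to 6 without each array in turn and 12 by the pooled error (beside 4.46% of all probe sets in either direction). By the pooled error the adjusted counts were 8 at 2-d, 5 at 4-wk, 9 for the turn and 4 for duration on L-P/C-HF, beside 0.344%, 0.3%, 0.155% and 7.84% of all probe sets. That error understates the spread of Hmgcs1, Pmvk, Idi1, Fdps and Sqle, so that these counts do not show differences beyond it. The count for duration on H-P/C-HF, 9, was 5 with the RNA quality covariate, beside 1.38% of all probe sets instead of 6.69%. The count of 1 for duration on L-P/C-HF (Pmvk) was 0 with median centring, cyclic loess, a separate fit, the covariate and ordinary ANOVA, and 0 to 1 without each array in turn. The cause was not tested.

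No difference whose sign turned had passed the test. At 4-wk Mvd (0.023) was -0.0027 without A01, A09 and A24 and -0.011 to 0.065 without each array in turn, where Ggps1 (-0.015) ran between -0.036 and 0.017. For duration on L-P/C-HF without A01, A09 and A24, Hmgcs1 (-0.12) was 0.16, Idi1 (-0.23) 0.041, Ggps1 -0.021 and Fdft1 0.087. Mvd there was -0.0092 with median centring and -0.0029 with cyclic loess, and with array weights Hmgcs1 was 0.094, Ggps1 -0.0038 and Fdft1 0.060. With the covariate Hmgcs1 was 0.019, Mvd -0.015 and Idi1 0.019. Without each array in turn Hmgcs1 ran between -0.20 and 0.010, Mvd between -0.018 and 0.099, Ggps1 between -0.0067 and 0.052, and Fdft1 between -0.041 and 0.085, and the median over the 10 genes (-0.060) was 0.0017 without A09. The median r over pairs of genes (0.59) was 0.58 with B25 included, 0.62 with median centring and 0.43 to 0.61 without each array in turn, alternatives chosen after seeing the data.

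With the replicate number as a replicate block, 0, 0 and 0 probe sets passed at 2-d, at 4-wk and for the turn, 9 for duration on H-P/C-HF and 0 for duration on L-P/C-HF, where the adjusted p of Pmvk was 0.0674. Deviations of mice with the same number correlated between -0.15 and 0.57 at 2-d (over 0.1 in 7 of 11 pairs) and between -0.28 and 0.21 at 4-wk (2 of 12), so that not every pair was over 0.1 and the numbers were not taken to pair the mice. The block changed no other adjusted call.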
